A study of Mus musculus with 4 samples.

Results

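The neural-enriched miRNAs miR-9, miR-124 and miR-128 were followed as 4 rows of a small RNA count table, mmu-miR-9-5p, mmu-miR-9-3p, mmu-miR-124-3p and mmu-miR-128-3p (written here without the species prefix), chosen by name out of 847 rows. The table holds macrophages from bone marrow (BM) or spleen of C57BL/6J mice, whose age is 6 to 8 weeks in the labels. There was 1 library for each of 4 groups: AML BM and AML spleen, taken 18 days after mice without irradiation received GFP+ MLL-AF9 leukaemia cells, and normal BM and normal spleen. Acute myeloid leukaemia (AML) in this model is driven by the fusion gene MLL-AF9, and the recipients keep their own haematopoietic cells. The markers of the sort, and how many mice gave a library, are not stated in the labels. With 1 library a group there is no test across replicates, so every statement compares libraries. All 4 members had a row, and 2 of them, miR-9-5p and miR-128-3p, reached 30 counts in some library and were compared by ratio.

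A miRNA is a short RNA that guides Argonaute proteins to messenger RNAs, mainly through its seed, bases 2 to 8, and lowers their translation and stability. miR-9 and miR-124 are known for neural progenitors and neurons, and miR-128 is among the abundant miRNAs of the brain. All have also been described in blood cells. In human monocytes and neutrophils miR-9 is induced by Toll-like receptor signalling and targets NFKB1, and miR-9 is known to be raised in human MLL-rearranged leukaemia. In mouse microglia and macrophages miR-124 is known to lower C/EBPα and PU.1 and to favour a resting state. In human leukaemia miR-128 is known to be higher in lymphoblastic than in myeloid disease.

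Mature sequences from RefSeq (GRCm38.p6) were matched for 3 of the 4 members, and they are shown with seed bases in capitals because no pair of these 3 shares a seed.
miR-9-5p: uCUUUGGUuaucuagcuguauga
miR-9-3p: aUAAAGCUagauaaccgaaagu
miR-128-3p: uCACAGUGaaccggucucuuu

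Each of these mature miRNAs is made from more than 1 hairpin. The hairpins, with the mature arms in capitals, are given because the arms decide what a count can be traced to. The miR-9 arms read the same in all 3 hairpins, so a miR-9 count names no locus.
Mir9-1: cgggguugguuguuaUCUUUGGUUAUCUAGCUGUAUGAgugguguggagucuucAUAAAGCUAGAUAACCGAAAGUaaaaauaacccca
Mir9-2: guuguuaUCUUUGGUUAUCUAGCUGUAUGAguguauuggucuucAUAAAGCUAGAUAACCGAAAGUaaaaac
Mir9-3: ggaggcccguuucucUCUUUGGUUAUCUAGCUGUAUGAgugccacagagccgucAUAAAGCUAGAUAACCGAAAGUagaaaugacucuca
Mir128-1: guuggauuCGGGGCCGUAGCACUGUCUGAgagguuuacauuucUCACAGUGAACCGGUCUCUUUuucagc
Mir128-2: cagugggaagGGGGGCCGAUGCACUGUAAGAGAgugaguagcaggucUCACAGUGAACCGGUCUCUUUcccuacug

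On GRCm38, Mir9-1 lies at chr3:88215598-88215686 (plus strand) in an intron of the long non-coding RNA Gm3764, opposite a miRNA gene model, Gm25641. Mir9-2 lies at chr13:83738814-83738885 (plus strand) and overlaps an exon of the long non-coding RNA C130071C03Rik. Mir9-3 lies at chr7:79505264-79505353 (plus strand) in an intron of Mir9-3hg. Mir128-1, at chr1:128202361-128202430 (plus strand), lies in an intron of the protein-coding gene R3hdm1, and Mir128-2, at chr9:112118636-112118711 (minus strand), in an intron of Arpp21. In both cases the host gene is on the same strand. The 3p arm is identical in both miR-128 hairpins, while the 5p arms differ and have rows of their own.

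Library totals ran from 180227 counts in AML spleen to 435492 in normal spleen, with 505 to 680 of the 847 rows detected. A level is given as CPM, the count per 1000000 reads after scaling with TMM factors, which correct for differences in composition. Square brackets hold 95% exact Poisson intervals for levels, 95% exact conditional intervals for log2 ratios and 95% exact binomial intervals for shares, and all of these cover counting error only. A list named myeloid (both arms of miR-223 and of miR-142a) was detected in every library. Its summed level was 1797, 2488, 723 and 7179 CPM in the AML BM, AML spleen, normal BM and normal spleen libraries. Most of its counts were of miR-142a, whose 3p arm held 170, 253, 31 and 1704 counts in that order. The 5p arm of miR-142a held 173, 213, 67 and 1047. The sum thus mainly follows miR-142a and is no measure of myeloid cells. The row of miR-223-3p, a marker of myeloid cells, held 12 counts in AML BM, 10 in normal BM, 4 in AML spleen and 28 in normal spleen. No member of the lymphocyte, stromal and endothelial, muscle, erythroid or myeloid lists that had a row was at 0 in any library. In sorted bulk samples, fewer cells of a type and less RNA per cell cannot be told apart.

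miR-9-5p was lower in leukaemic than in normal marrow macrophages and higher in leukaemic than in normal spleen macrophages. It had 170 counts in AML BM, 286 in normal BM, 268 in AML spleen and 92 in normal spleen. The levels were 606 CPM [519 to 705] in AML BM, 1379 CPM [1224 to 1549] in normal BM, 1389 CPM [1228 to 1566] in AML spleen and 235 CPM [189 to 288] in normal spleen. AML spleen and normal BM were the high libraries and did not differ beyond counting error, AML BM stood between, and normal spleen was lowest. The highest level was 5.92 times the lowest. By rank, miR-9-5p was number 98 of 547 detected rows in AML BM, 78 of 505 in normal BM, 70 of 535 in AML spleen and 141 of 680 in normal spleen.

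The other arm of the hairpin, miR-9-3p, was sparse in each of the 4 libraries, with 3 counts in AML BM, 16 in normal BM, 4 in AML spleen and 5 in normal spleen. Normal BM was the high library at 77.2 CPM [44.1 to 125], against 10.7 CPM [2.21 to 31.3] in AML BM. AML spleen stood at 20.7 CPM [5.65 to 53.1] and normal spleen at 12.8 CPM [4.14 to 29.8], intervals that overlap. All of these counts are under the minimum of 30 used for a call. The log2 ratio of AML BM to normal BM was -2.85 [-5.27 to -1.05], and that of AML spleen to normal spleen was 0.70 [-1.63 to 2.92], an interval that includes 0.

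Nearly all miR-9 counts came from the 5p arm. Its share of the summed arms was 98.3% [95.02 to 99.6] in AML BM, 94.7% [91.5 to 96.9] in normal BM, 98.5% [96.3 to 99.6] in AML spleen and 94.8% [88.4 to 98.3] in normal spleen. Both AML libraries had the larger shares, but the interval of each overlapped that of its normal library.

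miR-124-3p, the most neuron-restricted of the members, was found in AML spleen only, with 5 counts. That is 25.9 CPM [8.41 to 60.5]. It had 0 counts in AML BM, normal BM and normal spleen. A count of 0 allows a level of up to 10.7 CPM in AML BM, 14.5 CPM in normal BM and 7.65 CPM in normal spleen, taking 3 counts as the limit. The 5 counts are too few for a call, and no fold is given.

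miR-128-3p had the highest summed count of the members and was higher in leukaemic than in normal marrow macrophages. It had 893 counts in AML BM, 313 in normal BM, 267 in AML spleen and 847 in normal spleen. The levels were 3185 CPM [2979 to 3401] in AML BM, 1509 CPM [1347 to 1686] in normal BM, 1384 CPM [1223 to 1560] in AML spleen and 2160 CPM [2017 to 2311] in normal spleen. The order from high to low was AML BM, normal spleen, normal BM and AML spleen, and the last pair did not differ beyond counting error. The highest level was 2.30 times the lowest, a narrower range than that of miR-9-5p.

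**Figure D1:**
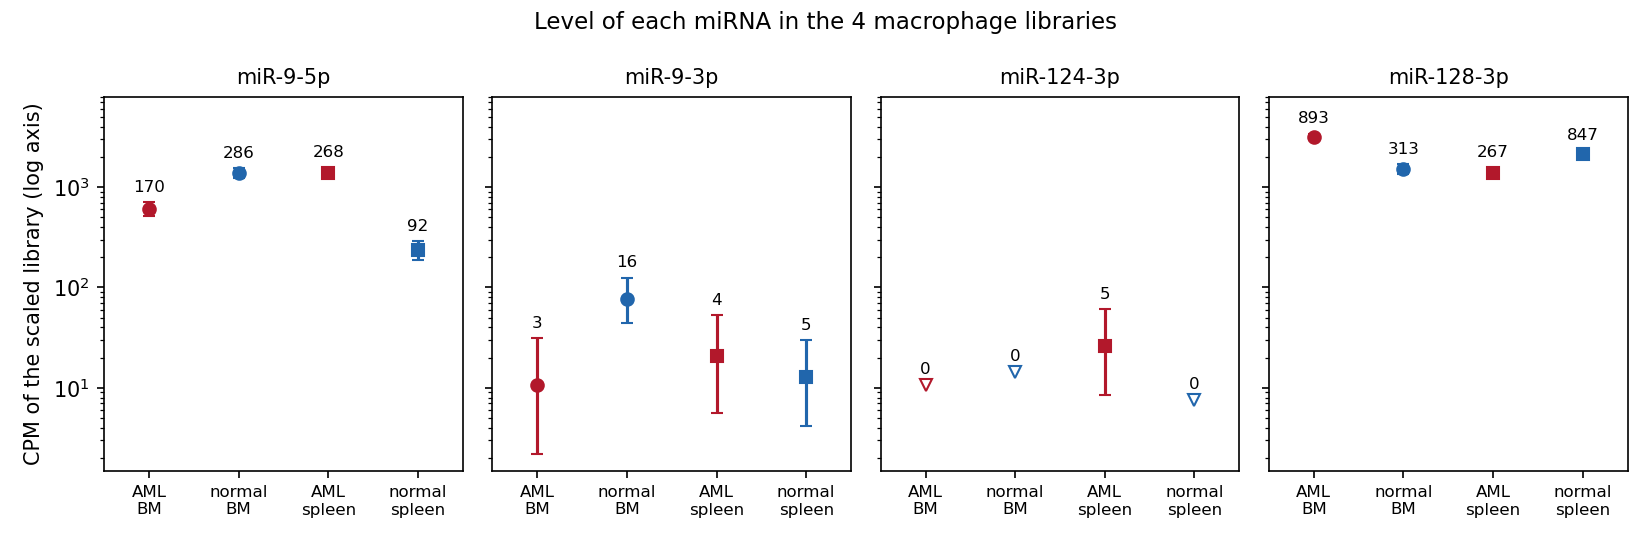
Level of each member (log axis, CPM of the TMM-scaled library) in the 4 libraries, AML in red and normal in blue, BM as circles and spleen as squares, with 95% exact Poisson bars and the count printed above. Open triangles mark the limit of 3 counts where the count was 0. miR-9-5p is high in normal BM and AML spleen, and miR-128-3p is high in AML BM and normal spleen.

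The 5p rows of miR-128 are the part that tells the hairpins apart, and they were nearly empty. miR-128-1-5p had 1 count in AML BM, 0 in normal BM, 1 in AML spleen and 12 in normal spleen, and miR-128-2-5p had 2, 4, 0 and 0 counts in that order of libraries. All 12 of the 5p counts of normal spleen thus came from Mir128-1, a share of 100% [73.5 to 100]. All 4 of the 5p counts of normal BM came from Mir128-2, where the share of Mir128-1 was 0% [0 to 60.2]. So few 5p counts cannot show which hairpin gave the miR-128-3p counts, since that arm is identical in both. Over the summed rows miR-128-3p held between 98.6% and 99.7% of the counts of a library.

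A library can be scaled in several ways, so the share of miR-9-5p among the counts of miR-9-5p and miR-128-3p was taken, which no scaling of the library changes. It was chosen after the values were seen. It was 16.0% [13.8 to 18.3] in AML BM, 47.7% [43.7 to 51.8] in normal BM, 50.1% [45.8 to 54.4] in AML spleen and 9.80% [7.97 to 11.9] in normal spleen. The share was lower in AML BM than in normal BM and higher in AML spleen than in normal spleen, with intervals that did not overlap in either tissue. Normal BM and AML spleen held about equal counts of both miRNAs, while normal spleen held 9.21 counts of miR-128-3p for each count of miR-9-5p.

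A miRNA entered a comparison where either of its libraries held 30 counts or more. Among the 216 miRNAs of the AML BM and normal BM comparison, 25.5% differed at least 2-fold in either direction, with an interval that excluded a ratio of 1. Both compared members were in that group, miR-9-5p lower and miR-128-3p higher. For miR-9-5p the log2 ratio was -1.19 [-1.47 to -0.91], number 20 from the lowest of the 216. Scaled on totals that omit the 10 most abundant miRNAs it was -0.99, which ends the call. For miR-128-3p the log2 ratio was 1.08 [0.89 to 1.27], number 25 from the highest. Both intervals reach below 2-fold.

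Between AML spleen and normal spleen 46.3% of 216 miRNAs differed at least 2-fold in either direction. Of the 2 compared members 1 did so, miR-9-5p, with a log2 ratio of 2.57 [2.22 to 2.92], number 13 from the highest. miR-128-3p was 0.641 times its normal spleen level, a log2 ratio of -0.64 [-0.85 to -0.44] that lay below 0 but short of 2-fold.

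The comparison of normal spleen with normal BM gives the tissue difference without leukaemia, and it shares its libraries with the comparisons above. There 66.2% of 234 miRNAs differed at least 2-fold in either direction, and 1 of 2 compared members did. For miR-9-5p, lowest in normal spleen, the log2 ratio was -2.56 [-2.91 to -2.21]. For miR-128-3p the log2 ratio was 0.52 [0.33 to 0.71].

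Between AML spleen and AML BM, 35.1% of 211 miRNAs differed at least 2-fold in either direction, and both compared members did. miR-9-5p had a log2 ratio of 1.20 [0.91 to 1.48] and miR-128-3p one of -1.20 [-1.41 to -1.004]. The tissue order of both miRNAs in the AML libraries was thus the reverse of that in the normal libraries. In AML the spleen library was above the BM library for miR-9-5p and below it for miR-128-3p. The normal tissue difference of miR-128-3p, at 0.52, was short of 2-fold. How many of all miRNAs had such a reversed order was not counted.

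**Figure D2:**
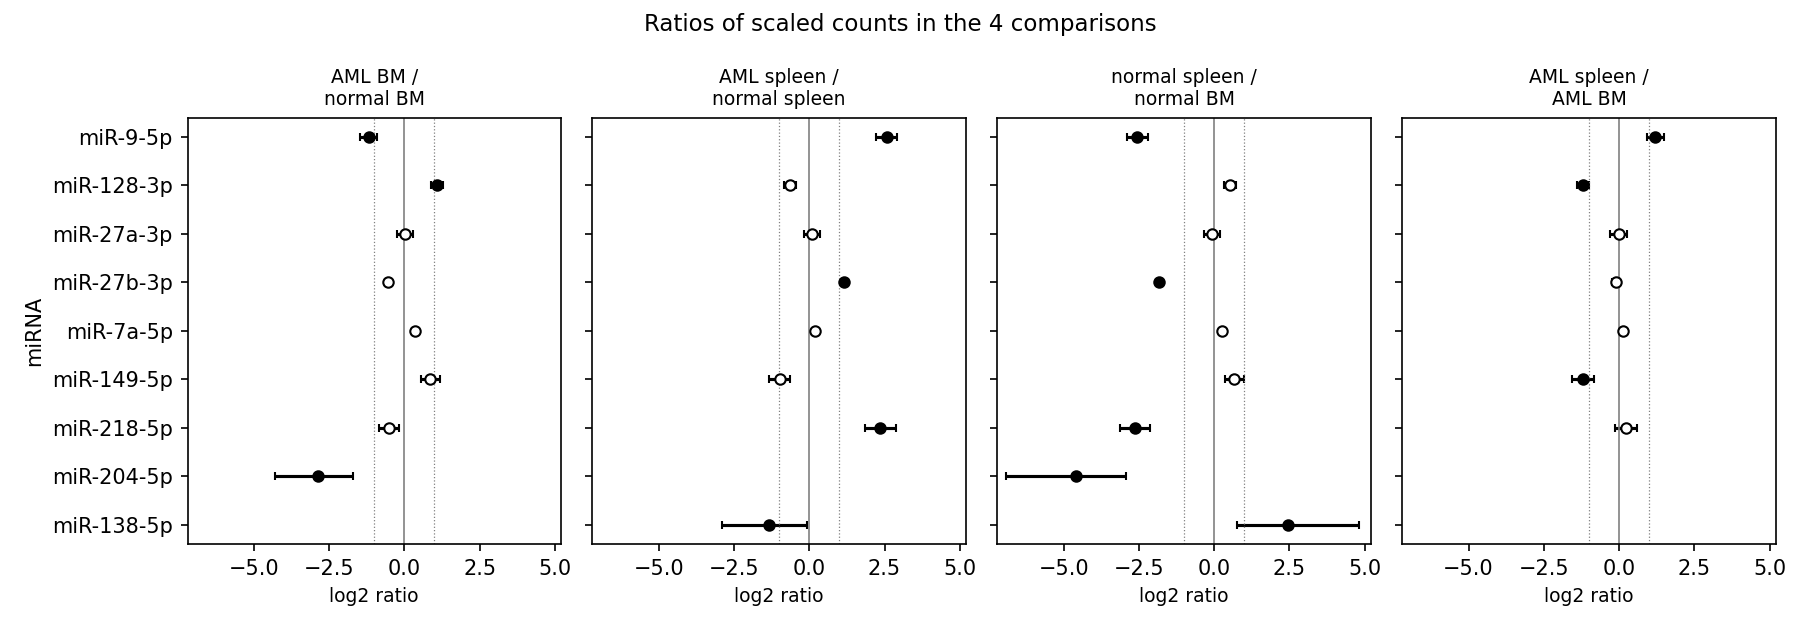
Log2 ratios with 95% exact conditional intervals for the compared members, the miR-27 rows and the other neural-list rows in the 4 comparisons, each with the first named library on top of the ratio. Filled points were called at least 2-fold different, open points were not, rows with fewer than 30 counts in both libraries are left blank, and dotted lines mark 2-fold. miR-9-5p lies at -1.19 in BM and 2.57 in spleen, and miR-128-3p at 1.08 and -0.64.

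The AML-to-normal ratio of the spleen minus that of the BM was 3.75 on the log2 scale for miR-9-5p (counting interval 3.31 to 4.19), number 7 from the highest of the 186 miRNAs compared in both tissues. For miR-128-3p it was -1.72 (-1.99 to -1.45), number 37 from the lowest. Opposite signs in the 2 tissues were common in these libraries, since 73.1% of the 186 miRNAs had them. A call in both tissues with opposite directions was found for 20 miRNAs, 10.8% of the 186, and miR-9-5p was one of them.

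**Figure D3:**
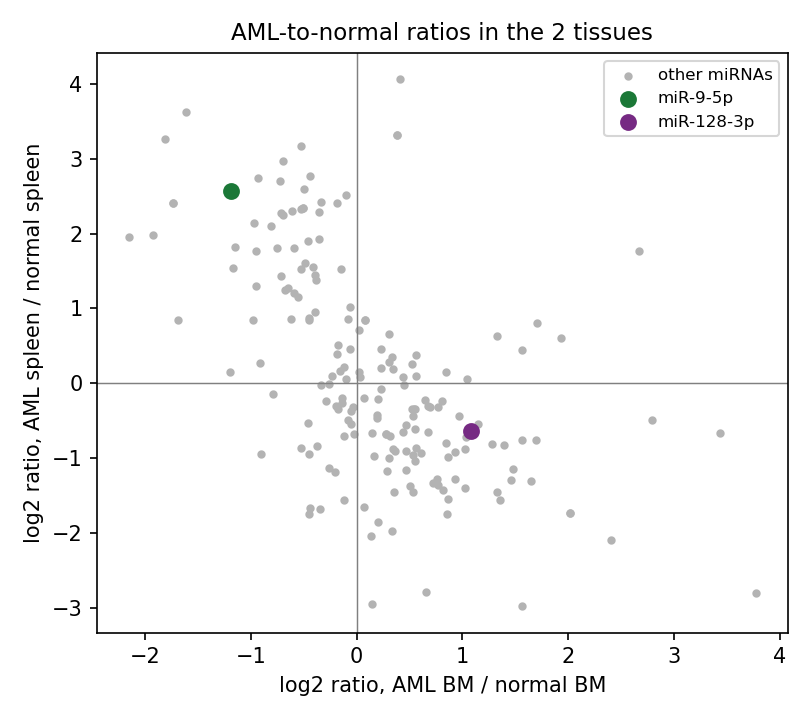
Log2 ratio of AML spleen to normal spleen against that of AML BM to normal BM for the 186 miRNAs compared in both tissues, with miR-9-5p in green and miR-128-3p in purple. miR-9-5p sits in the upper left and miR-128-3p in the lower right, the quadrants that hold 73.1% of the points.

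Some lists of cell type markers moved in the same comparisons. The muscle list, with 5 of its 7 members in the table, summed to 10588 CPM for AML BM and 36022 CPM for normal BM, and to 12346 CPM for AML spleen and 2334 CPM for normal spleen. All 5 rows were at least 2-fold lower in AML BM, against 12% of all miRNAs compared. All 3 rows compared were at least 2-fold higher in AML spleen, against 25%. The 8 stromal and endothelial miRNAs summed to 22122 CPM for AML BM and 32005 CPM for normal BM, and to 22111 CPM for AML spleen and 3655 CPM for normal spleen. Of these, 3 of 8 were lower in AML BM, and in AML spleen 6 of 6 were higher, against the same 12% and 25%. Like miR-9-5p, both lists were lowest in normal spleen. In AML spleen against AML BM miR-9-5p was at least 2-fold higher. There 0 of 6 stromal and endothelial rows and 1 of 3 muscle rows were higher, against 13.7% of all miRNAs. The 5 lymphocyte miRNAs summed to 41754 CPM for AML BM and 16125 CPM for normal BM, and to 46274 CPM for AML spleen and 105930 CPM for normal spleen. Of these, 2 of 5 were higher in AML BM, and in AML spleen 4 of 5 were lower, against 13.4% and 21.3% of all miRNAs. The 2 rows higher in AML BM were miR-181a-5p and miR-181b-5p, and miR-181a-5p alone held 10240 counts in AML BM. For AML BM against normal BM the log2 ratios of miR-150-5p (0.86), miR-150-3p (-0.18) and miR-342-3p (-0.35) were short of 2-fold. The 3 erythroid miRNAs summed to 7625 CPM for AML BM and 9659 CPM for normal BM, and to 8796 CPM for AML spleen and 9378 CPM for normal spleen. Of these, 1 of 3 was lower in AML BM and 1 of 2 higher in AML spleen, against 12% and 25% of all miRNAs. Both calls were of miR-451a, with 323 counts in AML BM, 1063 in normal BM, 355 in AML spleen and 186 in normal spleen. Like miR-9-5p it was lowest in normal spleen, but its log2 ratio of AML spleen to AML BM, 0.68, was short of 2-fold. miR-486a-5p held 1779, 913, 1340 and 3466 counts in that order of libraries. Its log2 ratios against normal were 0.53 in BM and -0.35 in spleen, opposite in sign to those of miR-451a and short of 2-fold. In the list named myeloid, 2 of 3 rows compared were higher in AML BM and 2 of 3 lower in AML spleen, against 13.4% and 21.3%. The part of these cell types in the values of miR-9-5p and miR-128-3p was not tested.

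Seeds link the members to other rows. No row with a RefSeq sequence had the same bases 2 to 8 as miR-9-5p, miR-9-3p or miR-128-3p, among the 673 rows matched. The closest to miR-128-3p were miR-27a-3p and miR-27b-3p, whose first bases hold the same 8-base run UCACAGUG 1 base further in. The closest to miR-9-3p was miR-340-5p, which shares the 7-base run AUAAAGC. The sequences are shown with bases 2 to 8 in capitals.
miR-27a-3p: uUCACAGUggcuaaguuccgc
miR-27b-3p: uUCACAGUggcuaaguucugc
miR-340-5p: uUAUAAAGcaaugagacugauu

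miR-27a-3p and miR-27b-3p, made from the paralogous miR-23, miR-27 and miR-24 clusters, did not follow miR-128-3p. miR-27a-3p had 269 counts in AML BM, 195 in normal BM, 183 in AML spleen and 351 in normal spleen, at a level between 895 and 959 CPM in all 4 libraries. miR-27b-3p had 1959 counts in AML BM, 2126 in normal BM, 1242 in AML spleen and 1131 in normal spleen. Its log2 ratio was -0.55 [-0.64 to -0.46] for BM, short of 2-fold, and 1.16 [1.04 to 1.28] for spleen, which with DESeq2 size factors was 0.92. The share of miR-128-3p in the summed counts of these 3 rows was 28.6% [27.0 to 30.2] in AML BM, 11.9% [10.7 to 13.2] in normal BM, 15.8% [14.1 to 17.6] in AML spleen and 36.4% [34.4 to 38.4] in normal spleen. This share does not depend on scaling, and against the normal library of the same tissue it was higher in AML BM, while in AML spleen it was lower. It reflects miR-27b-3p as well as miR-128-3p, since their ratios had opposite signs in both tissues. miR-340-5p was more abundant than miR-9-3p in every library, at 1188 CPM for AML BM, 1577 CPM for normal BM, 1140 CPM for AML spleen and 390.2 CPM for normal spleen.

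**Figure D4:**
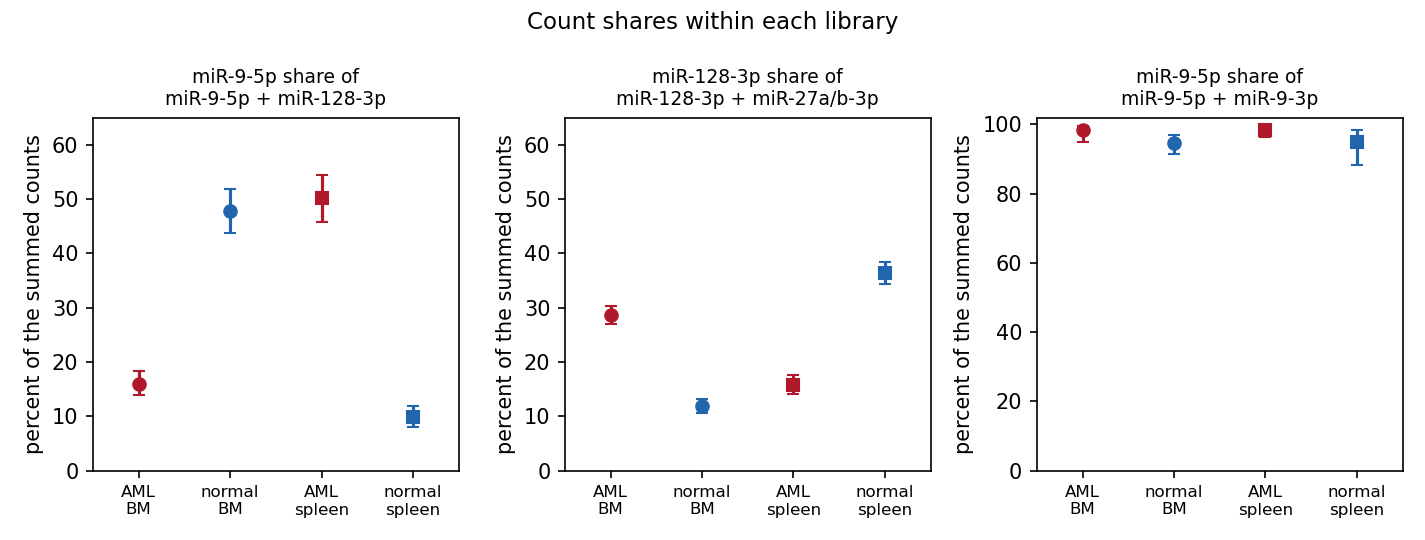
Shares of counts within each library, with 95% exact binomial bars, AML in red and normal in blue, BM as circles and spleen as squares. The miR-9-5p share against miR-128-3p is 16.0% in AML BM, 47.7% in normal BM, 50.1% in AML spleen and 9.80% in normal spleen, while the 5p share of the miR-9 arms stays above 94% in all 4.

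By the smallest root mean square difference of centred log2(CPM + 10) over the 4 libraries, among 209 rows with at least 100 counts, the patterns most like miR-9-5p were those of miR-127-3p (0.23), miR-34c-5p (0.30) and miR-199a-3p (0.34). miR-127-3p stood at 442 CPM for AML BM, 723 CPM for normal BM, 912 CPM for AML spleen and 189 CPM for normal spleen. The patterns most like miR-128-3p were those of miR-330-5p (0.097), miR-503-5p (0.10) and let-7i-5p (0.14). miR-330-5p had 95 counts in AML BM, 36 in normal BM, 31 in AML spleen and 85 in normal spleen. With 4 libraries such likeness is a description only.

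A list of 30 neural-enriched miRNAs, the members included, had 24 rows in the table, and between 5 and 7 of them reached the count minimum in a comparison. In AML BM against normal BM, 1 of 6 was higher and 2 were lower, against 13.4% and 12% of all miRNAs, with a median log2 ratio of -0.08 beside 0.0029 over all miRNAs compared. In AML spleen against normal spleen, 2 of 6 were higher and 1 was lower, against 25% and 21.3%, with a median of -0.22 beside -0.25. In normal spleen against normal BM, 1 of 7 was higher and 3 were lower, against 30.8% and 35.5%, with a median of 0.27 beside 0.19. In AML spleen against AML BM, 1 of 5 was higher and 2 were lower, against 13.7% and 21.3%, with a median of 0.13 beside -0.12. The single row lower in AML spleen than in normal spleen, miR-138-5p, lost its call on total counts, on totals that omit the 10 most abundant miRNAs and at a minimum of 100 counts. At that last minimum the list also had no row higher in normal spleen than in normal BM.

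The most abundant row of the list was miR-7a-5p, which is abundant in neuroendocrine cells. It had 2412 counts in AML BM, 1409 in normal BM, 1812 in AML spleen and 3217 in normal spleen, and did not differ 2-fold in any comparison. miR-218-5p, made from introns of Slit2 and Slit3 and known for motor neurons, stood at 514 CPM for AML BM, 728 CPM for normal BM, 596 CPM for AML spleen and 117 CPM for normal spleen. Like miR-9-5p it was lowest in normal spleen and higher in AML spleen than there, by a log2 ratio of 2.34 [1.84 to 2.87], while AML BM stood at -0.50 [-0.84 to -0.16] against normal BM.

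miR-149-5p had 278 counts in AML BM, 113 in normal BM, 84 in AML spleen and 337 in normal spleen, the same order of levels as miR-128-3p. Its log2 ratio was 0.86 [0.54 to 1.19] for AML BM against normal BM and -0.98 [-1.34 to -0.63] for AML spleen against normal spleen, both short of 2-fold, though the first reached 1.06 on totals that omit the 10 most abundant miRNAs and the second -1.22 with DESeq2 size factors. It was lower in AML spleen than in AML BM, at -1.19 [-1.56 to -0.83]. miR-204-5p, known for retinal pigment epithelium and choroid plexus, was high in 1 library, with 7 counts in AML BM, 38 in normal BM, 0 in AML spleen and 3 in normal spleen. Its log2 ratio of AML BM to normal BM was -2.88 [-4.28 to -1.70]. miR-138-5p, known for limiting the size of dendritic spines, had 0 counts in AML BM, 3 in normal BM, 6 in AML spleen and 31 in normal spleen. Its log2 ratio of AML spleen to normal spleen was -1.35 [-2.90 to -0.06], with an interval that includes 0 on total counts (-1.10) and on totals that omit the 10 most abundant miRNAs (-1.26).

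The rest of the list was thinly covered, at 21 counts or fewer in every library. Some of these rows, picked after their values were seen, had counts in 1 library alone. miR-219a-2-3p, known for oligodendrocytes, had 20 counts in AML spleen and 0 in the other libraries. miR-129-1-3p and miR-488-3p had 12 and 11 counts in normal BM and 0 elsewhere. In the whole table, 6 rows had at least 10 counts in 1 library and 0 in the others, and these 3 were among them. miR-383-5p had 17 counts in AML spleen, 1 in normal BM and 0 in both AML BM and normal spleen. The row of miR-129-5p held 10 counts in AML BM, 8 in normal BM, 3 in AML spleen and 2 in normal spleen, the same as miR-129b-3p, so the same reads may stand in both.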

How the data were processed

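Small RNA libraries of sorted macrophages were read on the Illumina HiSeq platform, per the labels' protocols. The authors deposited raw read counts per miRNA for 4 libraries, and TPM values that equal the count per 1000000 counted reads with no length term. TPM served only as a check. The aligner, counting tool, genome build and miRNA annotation are not stated in the labels or the file. Groups came from the sample titles, 1 library each.

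Scaling used TMM factors (edgeR 4.0.16, R 4.3.3), with DESeq2 1.42.0 size factors, total counts and totals without the 10 most abundant miRNAs as alternatives, besides count minima of 1 and 100. Ratios carry 95% exact conditional (Clopper-Pearson) intervals. A call needed a ratio of 2 or more (0.5 or less), an interval without 1, and 30 counts or more in either library. Zero counts were limited at 3 counts. Reads carry no molecular identifiers in the table, so intervals and limits cover counting error only. The code was tested on simulated Poisson counts. Sequences and hairpin coordinates are those of RefSeq (GRCm38.p6), and gene models those of GENCODE on GRCm38.

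Rows named beside the members were their other hairpin arms, neural-list rows with at least 30 counts in some library, rows with 6 or more consecutive bases of a member's first 9 (only the closest are named) and the 3 nearest patterns per member with at least 100 counts. Members and lists were chosen with earlier results of these data known.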

Additional observations from a re-analysis of the deposited data

Results flagged for a closer look

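The AML-to-normal log2 ratio of miR-9-5p differed between the tissues by 3.75 (spleen minus BM), since it was above 0 in spleen and below 0 in BM, with counting intervals that excluded 0 in both. That of miR-128-3p differed by -1.72, below 0 in spleen and above 0 in BM. Each rests on 1 library a group, and the difference was not tested across replicates.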

How the results depend on the processing

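No paired analysis was possible because the labels carry no replicate numbers and each group has 1 library, and leaving out a library would leave its group empty. Across the alternatives 82 recomputed values stayed within their counting interval or within 1.5 times, and 20 moved. The log2 ratio of miR-128-3p between AML spleen and normal spleen was -0.88 with DESeq2 size factors and -0.39 on total counts, beside -0.64. For normal spleen against normal BM it was 0.75 with DESeq2 size factors, beside 0.52, and for AML BM against normal BM 1.27 on totals that omit the 10 most abundant miRNAs, beside 1.08. All values of the AML spleen and normal spleen comparison shifted on the log2 scale by -0.24 with DESeq2 size factors and by 0.25 on total counts, those of normal spleen against normal BM by 0.24 and -0.16, and those of AML BM against normal BM by 0.20 on totals that omit the 10 most abundant miRNAs. These totals left 1 of 2 members called in AML BM against normal BM, since miR-9-5p stood at -0.99.

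Depth limits most of the list. At a minimum of 1 count more rows entered each comparison. The members called were then 3 of 3 for AML BM against normal BM, 2 of 4 for AML spleen against normal spleen (miR-9-5p and, with 0 entered as 3 counts, miR-124-3p), 2 of 3 for normal spleen against normal BM (both arms of miR-9) and 3 of 4 for AML spleen against AML BM. The neural-list rows called in these comparisons were 6 of 21, 7 of 20, 11 of 22 and 8 of 22, beside 119 of 643, 179 of 754, 259 of 755 and 141 of 658 over all miRNAs. At the minimum of 30 counts they were 3 of 6, 3 of 6, 4 of 7 and 3 of 5, beside 55 of 216, 100 of 216, 155 of 234 and 74 of 211. At a minimum of 100 counts 24, 64, 96 and 37 miRNAs were called (18.3%, 45.1%, 64% and 26.8% of those compared), and 2 of 5 neural-list rows in normal spleen against normal BM, both lower.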
